A study of Mus musculus with 8 samples.

Results

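The cytochrome P450 genes were taken as all genes whose annotated symbol is Cyp followed by a digit. The array carried 73 of them among 18194 named genes, each read by the probe set that names that gene alone and is brightest on average over the 8 arrays. Levels are log2 of the deposited intensities, so a difference of 1 is a doubling. A gene was tested if it reached a level of 5 on at least 2 arrays, which 28 of the 73 P450 genes and 13136 of all genes did. The other 45 are described by their levels, with no test. Just inside the filter were Cyp2u1, with a highest level of 5.36, and Cyp1a1, with 5.19, and just outside were Cyp2c37, with 5.25 on its highest array, and Cyp2d9, with 5.20.

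Cytochrome P450 enzymes are membrane-bound heme proteins that insert an oxygen atom into lipids, steroids, bile acids, vitamins, drugs and other foreign compounds. The liver holds most of the enzymes that clear drugs and most of those that turn cholesterol into bile acids, while single P450 enzymes of cholesterol synthesis, retinoic acid clearance or leukotriene clearance act in many other cells. In rodents the Cyp2c, Cyp2d and Cyp3a subfamilies have expanded into clusters of neighbouring genes, several of which change their expression around birth.

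Total RNA came from cell suspensions of 2 blood-forming tissues of C57B6/J mice, namely fetal liver at embryonic day 14.5 and marrow flushed from femur and tibia of males aged 3 months. Mice of each tissue were Col18a1-/- (knockout) or Col18a1+/+ (wild-type), which gives knockout fetal liver, wild-type fetal liver, knockout marrow and wild-type marrow. Each group had 2 arrays, and each array held RNA pooled from 2 littermates, so p-values measure the spread between pools. Col18a1 encodes the alpha chain of collagen XVIII, a basement membrane proteoglycan, and the knockout is constitutive with no cell type or promoter of its own given.

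The targeted gene was lower in knockout than in wild-type arrays of each tissue, but its signal was not lost. Col18a1 read 8.17 and 8.06 on the knockout fetal liver arrays, against 9.06 and 9.18 on the wild-type ones, and 5.63 and 5.99 on the knockout marrow arrays, against 7.84 and 7.85 on the wild-type ones. Xist, the transcript that coats the inactive X chromosome, read 4.97 and 4.77 in knockout fetal liver and 11.04 and 11.22 in wild-type fetal liver. The Y-linked Eif2s3y read 9.38 and 9.42 in knockout fetal liver and 3.29 and 3.00 in wild-type fetal liver. The genotype comparison in fetal liver is therefore also a comparison of pools that differ in sex-linked expression, and these cannot be told apart. In marrow Xist read 4.61 and 5.03 in knockout and 4.86 and 4.78 in wild-type arrays, and Eif2s3y read 10.03 and 9.38 in knockout and 10.01 and 9.78 in wild-type arrays. The wild-type tissue comparison therefore also carries this difference, while limma called neither gene in the knockout one, so both are given below. Tissue, age and stage differ together in each of them. Hepatocyte markers such as Alb, Afp and Ttr averaged 11.80 and 11.80 in knockout fetal liver, 11.62 and 11.66 in wild-type fetal liver, 4.52 and 4.65 in knockout marrow, and 4.51 and 4.76 in wild-type marrow over the 11 markers on the array. Replicate arrays correlated at 0.995 to 0.998 over all probe sets.

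Between fetal liver and marrow the P450 genes split into a larger group that was higher in fetal liver and a small group that was higher in marrow. In wild-type arrays 20 of 28 tested P450 genes were called by limma at an adjusted p under 0.05, against a background of 65.9% of all tested genes, with 16 higher in fetal liver (background 39.2%) and 4 lower (background 26.8%). In knockout arrays 21 of 28 were called (background 63.8%), 17 of them higher in fetal liver (background 36.6%) and 4 lower (background 27.1%). The genes higher in fetal liver in both genotypes numbered 15 (background 31.8%), and the same 4 were lower in both (background 23.3%). The median difference was 0.60 over the P450 genes and 0.14 over all tested genes in wild-type arrays, and 0.86 and 0.11 in knockout arrays. These counts and medians describe the genes that passed and support nothing further, because 10 of the 28 passed the filter through fetal liver arrays alone, while none passed through marrow arrays alone. In whole tissue, fewer cells of a type and less RNA per cell cannot be told apart.

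**Figure D1:**
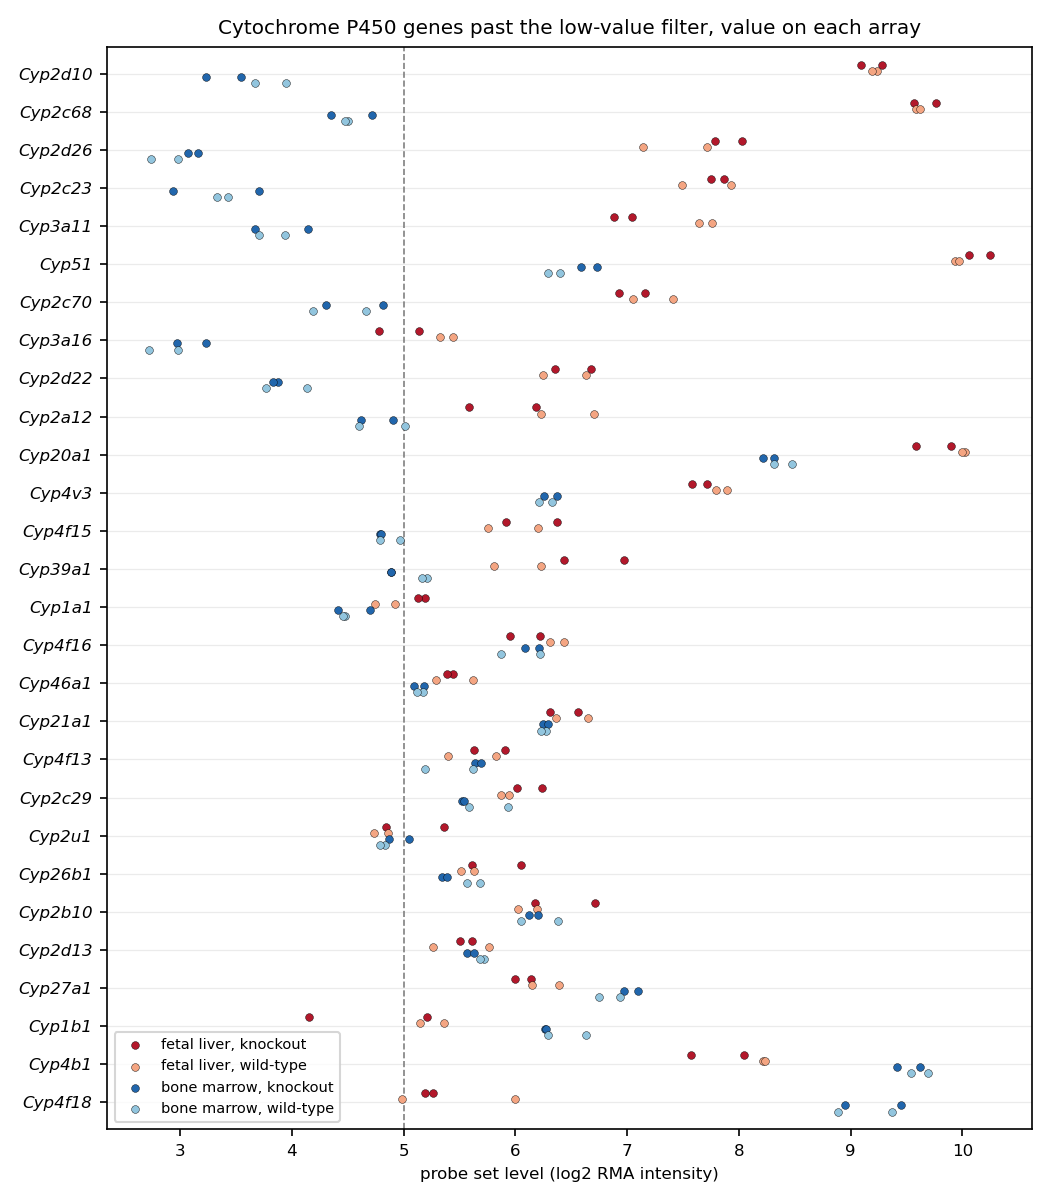
Level of each of the 28 tested cytochrome P450 genes on each of the 8 arrays (x axis, log2 RMA intensity), 1 row per gene ordered by the wild-type tissue difference, with 4 colours for the 4 groups of 2 arrays and a dashed line at the filter level of 5. The upper rows have their fetal liver points far to the right of their marrow points, with 9.57 to 9.77 against 4.35 to 4.72 for Cyp2c68, and Cyp4f18 in the bottom row has them to the left.

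The Cyp2 family, which metabolises drugs, steroids and arachidonic acid, had 11 of its 34 members on the array tested. Of these, 8 were higher in knockout fetal liver (background 36.6%) and 7 in wild-type fetal liver (background 39.2%), and none was lower. Since 6 of the 7 passed the filter through fetal liver arrays alone, this count supports nothing further. Promoters of 7 genes are printed here. Cyp2c68, Cyp2c70, Cyp3a11, Cyp3a16 and Cyp8b1 share the string CAAAGTCCA, Cyp51 holds the string TCACCTCA, and Cyp2d10, higher in fetal liver in both genotypes, holds neither. They are RefSeq windows of 300 bases (250 before and 50 after the annotated start) on build GRCm38.p6, written 5′ to 3′ on the gene's strand. Capitals mark matches on either strand to 1 of 6 strings: CAAAGTCCA (an HNF4 element), the palindromic HNF1 consensus, TTGCGCAA (C/EBP), TCACCTCA and TCACCCCA (SREBP elements) and GAGGAAGT (PU.1).
Cyp2c68 (chr19:39741052-39741351, minus strand): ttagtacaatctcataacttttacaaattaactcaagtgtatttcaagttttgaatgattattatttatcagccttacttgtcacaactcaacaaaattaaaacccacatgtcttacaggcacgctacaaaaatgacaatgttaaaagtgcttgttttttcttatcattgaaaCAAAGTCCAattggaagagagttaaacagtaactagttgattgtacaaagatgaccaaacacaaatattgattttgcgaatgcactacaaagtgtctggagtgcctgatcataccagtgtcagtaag
Cyp2c70 (chr19:40187237-40187536, minus strand): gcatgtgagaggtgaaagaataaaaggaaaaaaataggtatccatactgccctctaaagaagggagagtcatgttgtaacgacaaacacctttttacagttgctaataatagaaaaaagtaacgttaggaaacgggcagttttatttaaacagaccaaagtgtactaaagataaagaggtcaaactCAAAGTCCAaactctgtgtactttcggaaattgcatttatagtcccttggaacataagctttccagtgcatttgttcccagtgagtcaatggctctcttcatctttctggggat
Cyp3a11 (chr5:145879805-145880104, minus strand): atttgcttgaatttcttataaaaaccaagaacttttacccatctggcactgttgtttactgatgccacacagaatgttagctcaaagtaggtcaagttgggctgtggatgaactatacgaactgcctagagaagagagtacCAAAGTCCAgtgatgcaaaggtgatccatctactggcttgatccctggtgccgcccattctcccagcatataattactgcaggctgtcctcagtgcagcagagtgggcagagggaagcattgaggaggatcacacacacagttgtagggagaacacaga
Cyp3a16 (chr5:145469674-145469973, minus strand): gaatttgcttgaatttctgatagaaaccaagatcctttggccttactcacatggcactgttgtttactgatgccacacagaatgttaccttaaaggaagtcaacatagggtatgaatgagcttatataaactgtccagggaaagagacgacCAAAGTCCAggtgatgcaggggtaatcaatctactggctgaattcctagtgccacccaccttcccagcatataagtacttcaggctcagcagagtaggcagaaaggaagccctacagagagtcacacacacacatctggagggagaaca
Cyp8b1 (chr9:121916256-121916555, minus strand): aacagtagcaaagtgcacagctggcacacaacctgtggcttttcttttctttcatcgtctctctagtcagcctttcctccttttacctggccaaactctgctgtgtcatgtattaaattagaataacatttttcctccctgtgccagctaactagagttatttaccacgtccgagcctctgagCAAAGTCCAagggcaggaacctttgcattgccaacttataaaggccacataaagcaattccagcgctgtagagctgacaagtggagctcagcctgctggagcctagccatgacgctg
Cyp51 (chr5:4104648-4104947, minus strand): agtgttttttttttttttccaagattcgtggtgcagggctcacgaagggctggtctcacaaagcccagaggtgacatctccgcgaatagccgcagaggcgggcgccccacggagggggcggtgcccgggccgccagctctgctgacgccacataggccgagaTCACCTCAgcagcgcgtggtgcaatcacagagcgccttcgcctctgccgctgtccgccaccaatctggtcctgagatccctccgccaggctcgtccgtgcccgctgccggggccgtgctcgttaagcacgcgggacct
Cyp2d10 (chr15:82407145-82407444, minus strand): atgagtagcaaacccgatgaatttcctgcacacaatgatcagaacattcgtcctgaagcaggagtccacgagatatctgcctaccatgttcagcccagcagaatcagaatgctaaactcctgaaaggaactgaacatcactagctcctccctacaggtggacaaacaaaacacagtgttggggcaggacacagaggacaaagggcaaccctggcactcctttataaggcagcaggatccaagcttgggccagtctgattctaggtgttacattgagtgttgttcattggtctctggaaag

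CAAAGTCCA, one form of the direct repeat bound by the liver nuclear receptor HNF4, lay in the windows of Cyp2c68, Cyp2c70, Cyp3a11 and Cyp3a16. These are 4 of the 12 genes higher in fetal liver in both genotypes that have a window in the table. Counted from the start as 0, it lay at −77 to −69 in Cyp2c68, −64 to −56 in Cyp2c70, −109 to −101 in Cyp3a11 and −99 to −91 in Cyp3a16. The string occurs in 0.475% of all 32851 windows, and in those of 6 P450 genes. The other 2 genes, Cyp8b1 and Cyp2c65, did not reach the filter, with highest levels of 4.74 and 2.94. TCACCTCA, a sterol regulatory element, lay at −88 to −81 in Cyp51 and in no other P450 window, against 1.17% of all windows. TCACCCCA (1.56% of all windows), TTGCGCAA (0.183%) and the HNF1 consensus (0.00913%) matched no P450 window, and GAGGAAGT (3.2%) matched those of Cyp2a12, Cyp4f16 and Cyp4v3. The printed windows of the paralogs Cyp3a11 and Cyp3a16 also share other stretches of bases, so their matches are not independent. A window was found for 52 of the 73 genes, and a match or its absence is a description of these letters only.

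Cyp2c68, a member of the Cyp2c drug and arachidonic acid subfamily, read 9.57 and 9.77 in knockout fetal liver and 9.58 and 9.62 in wild-type fetal liver, against 4.35 and 4.72 in knockout marrow and 4.50 and 4.47 in wild-type marrow. All 4 fetal liver arrays lay far above all 4 marrow arrays, with no separation by genotype. The tissue difference was 5.13 ± 0.13 in knockout arrays (35-fold, adjusted p = 8.3e-09, limma) and 5.11 ± 0.13 in wild-type arrays (34.6-fold, adjusted p = 8.44e-09, limma; here and below ± is the standard error of the fit, with 2 arrays per group). Cyp2c23, a mouse arachidonic acid epoxygenase, read 7.75 and 7.87 in knockout and 7.49 and 7.93 in wild-type fetal liver, against 2.94 and 3.70 in knockout and 3.43 and 3.33 in wild-type marrow. Its fetal liver and marrow arrays did not overlap, and the differences were 4.49 ± 0.23 in knockout arrays (22.4-fold, adjusted p = 4.56e-07, limma) and 4.33 ± 0.23 in wild-type arrays (20.1-fold, adjusted p = 5.66e-07, limma).

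Cyp2c70 forms muricholic acids, the hydrophilic bile acids of mice. It read 7.16 and 6.93 in knockout and 7.41 and 7.05 in wild-type fetal liver, against 4.30 and 4.81 in knockout and 4.66 and 4.19 in wild-type marrow. The tissues did not overlap and the genotypes did, and the tissue difference was 2.49 ± 0.21 in knockout arrays (5.6-fold, adjusted p = 1.18e-05, limma) and 2.80 ± 0.21 in wild-type arrays (6.98-fold, adjusted p = 5.21e-06, limma). Cyp2c29, also of this subfamily, read 6.02 and 6.24 in knockout and 5.88 and 5.94 in wild-type fetal liver, against 5.53 and 5.54 in knockout and 5.93 and 5.58 in wild-type marrow. Only the knockout arrays kept the tissues apart, with 0.60 ± 0.13 in knockout arrays (adjusted p = 0.0035, limma) and 0.15 ± 0.13 in wild-type arrays (adjusted p = 0.335, limma). The direct test between these 2 differences did not call Cyp2c29 (0.45 ± 0.18, adjusted p = 0.298, limma).

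Among the Cyp2d genes, of which the human counterpart CYP2D6 clears many drugs, Cyp2d10, Cyp2d26 and Cyp2d22 were higher in fetal liver. Cyp2d10 read 9.28 and 9.09 in knockout and 9.23 and 9.19 in wild-type fetal liver, against 3.23 and 3.54 in knockout and 3.95 and 3.67 in wild-type marrow. Fetal liver lay above marrow on every array, and the differences were 5.80 ± 0.14 in knockout arrays (55.6-fold, adjusted p = 5.76e-09, limma) and 5.40 ± 0.14 in wild-type arrays (42.3-fold, adjusted p = 8.1e-09, limma). Cyp2d26 read 8.03 and 7.79 in knockout and 7.14 and 7.71 in wild-type fetal liver, against 3.07 and 3.16 in knockout and 2.74 and 2.99 in wild-type marrow. It was 4.79 ± 0.18 higher in knockout arrays (27.7-fold, adjusted p = 7.49e-08, limma) and 4.56 ± 0.18 higher in wild-type arrays (23.6-fold, adjusted p = 1.05e-07, limma), with all fetal liver arrays above all marrow arrays. Cyp2d22 read 6.67 and 6.35 in knockout and 6.24 and 6.63 in wild-type fetal liver, against 3.87 and 3.83 in knockout and 3.77 and 4.14 in wild-type marrow. The tissues were again apart, by 2.66 ± 0.17 in knockout arrays (adjusted p = 1.86e-06, limma) and 2.48 ± 0.17 in wild-type arrays (adjusted p = 2.8e-06, limma), and its other probe set gave 1.79 and 1.53.

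Cyp2a12, a steroid hydroxylase of mouse liver, read 5.59 and 6.19 in knockout and 6.70 and 6.23 in wild-type fetal liver, against 4.62 and 4.91 in knockout and 5.01 and 4.60 in wild-type marrow. The tissues did not overlap, and the differences were 1.12 ± 0.24 in knockout arrays (2.18-fold, adjusted p = 0.00287, limma) and 1.66 ± 0.24 in wild-type arrays (3.16-fold, adjusted p = 0.000262, limma). Cyp2b10, the drug-inducible form that answers to the receptor CAR, read 6.71 and 6.17 in knockout and 6.02 and 6.20 in wild-type fetal liver, against 6.12 and 6.20 in knockout and 6.05 and 6.38 in wild-type marrow, so the tissues overlapped. Cyp2d13 and Cyp2u1 were likewise called in neither tissue comparison, with adjusted p of 0.82 and 0.457 in knockout arrays and 0.295 and 0.953 in wild-type arrays (limma). The 23 untested Cyp2 genes had levels of 2.66 to 5.25.

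The Cyp3a enzymes oxidise drugs and steroid hormones. Cyp3a11, the main adult form of mouse liver, read 6.88 and 7.05 in knockout and 7.76 and 7.64 in wild-type fetal liver, against 3.67 and 4.15 in knockout and 3.94 and 3.70 in wild-type marrow. Fetal liver was above marrow in both genotypes, and within fetal liver both knockout arrays were below both wild-type arrays. The tissue difference was 3.05 ± 0.16 in knockout arrays (8.31-fold, adjusted p = 4.83e-07, limma) and 3.87 ± 0.16 in wild-type arrays (14.7-fold, adjusted p = 1.22e-07, limma). Cyp3a16, a form of fetal and newborn mouse liver, read 4.78 and 5.14 in knockout and 5.32 and 5.44 in wild-type fetal liver, against 3.24 and 2.97 in knockout and 2.98 and 2.72 in wild-type marrow. Its levels were in the same order by group, with fetal liver above marrow by 1.86 ± 0.15 in knockout arrays (3.62-fold, adjusted p = 8.51e-06, limma) and by 2.53 ± 0.15 in wild-type arrays (5.78-fold, adjusted p = 1.14e-06, limma). The promoters of both genes, printed above, hold CAAAGTCCA.

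Within each gene cluster some genes differed between the tissues and others, some of them lying between these, differed little. In the Cyp2c cluster of chromosome 19 the array read 11 genes, and Cyp2c68, Cyp2c70 and Cyp2c23 exceeded 2 in both genotypes, while Cyp2c37, untested, stood next at 0.72 in knockout and 1.15 in wild-type arrays. Cyp2c54 lies between these genes and differed by 0.23 and 0.03. In the Cyp2d cluster of chromosome 15, whose 9 protein-coding genes are 8 P450 genes and 1 other, Cyp2d22, Cyp2d10 and Cyp2d26 differed and the other 5 differed by −0.04 to 0.56 in knockout and −0.19 to 0.43 in wild-type arrays. In the Cyp3a group of chromosome 5, Cyp3a13 was untested but read higher in fetal liver by 1.47 in knockout and 1.93 in wild-type arrays, while Cyp3a44 differed by 0.23 and 0.03 and Cyp3a25 by −0.02 and 0.36. No gene of the Cyp2j or Cyp4a clusters of chromosome 4 passed the filter. Close paralogs may share probe matches, so a difference assigned to 1 Cyp2c, Cyp2d or Cyp3a gene could hold RNA of a neighbour, which was not tested.

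**Figure D2:**
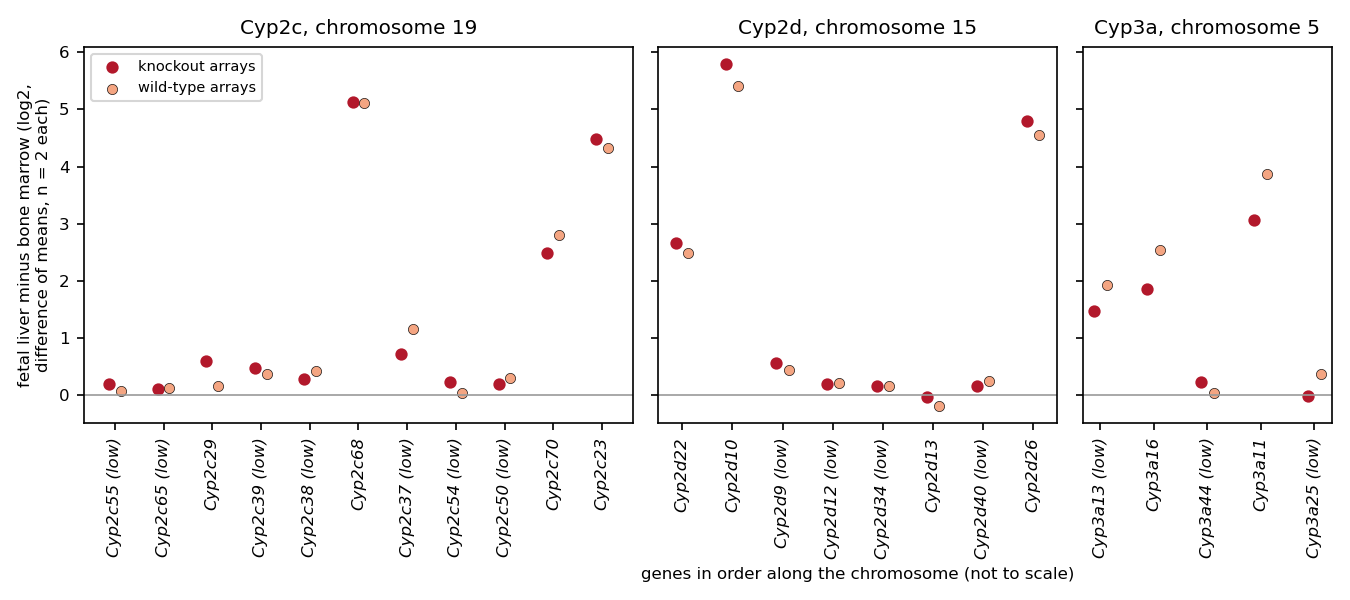
Fetal liver minus marrow difference of group means (y axis, log2) for each gene of the Cyp2c, Cyp2d and Cyp3a clusters in order along the chromosome (x axis, not to scale), with 1 point for knockout and 1 for wild-type arrays (2 arrays per group) and "(low)" after genes that did not pass the filter. Cyp2c68, Cyp2c70, Cyp2c23, Cyp2d22, Cyp2d10, Cyp2d26, Cyp3a16 and Cyp3a11 lie at 1.86 or more, the untested Cyp3a13 lies at 1.47 and 1.93 and the untested Cyp2c37 at 0.72 and 1.15, and the other genes lie between −0.19 and 0.60.

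The Cyp1 enzymes oxidise polycyclic hydrocarbons under control of the aryl hydrocarbon receptor, and the 2 tested members differed in opposite directions. Cyp1a1 read 5.19 and 5.13 in knockout and 4.74 and 4.92 in wild-type fetal liver, against 4.42 and 4.70 in knockout and 4.48 and 4.46 in wild-type marrow. It was higher in fetal liver by 0.61 ± 0.12 in knockout arrays (adjusted p = 0.00171, limma) and by 0.37 ± 0.12 in wild-type arrays (adjusted p = 0.0211, limma), with no overlap of tissues. The wild-type call was lost with the mean-dependent and robust variance, without either wild-type marrow array and without wild-type fetal liver replicate 2, with adjusted p of up to 0.122 (limma). Cyp1b1, which also acts in stromal and endothelial cells, read 5.21 and 4.16 in knockout and 5.15 and 5.36 in wild-type fetal liver, against 6.26 and 6.27 in knockout and 6.63 and 6.30 in wild-type marrow. It was lower in fetal liver, at −1.58 ± 0.29 in knockout arrays (adjusted p = 0.00118, limma) and −1.21 ± 0.29 in wild-type arrays (adjusted p = 0.00508, limma), although its 2 dimmer probe sets gave −0.20 and 0.25 in knockout and −0.36 and 0.14 in wild-type arrays. Cyp1a2 was not tested.

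Among the sterol enzymes, Cyp51 and the other tested enzymes of cholesterol synthesis were higher in fetal liver, Cyp39a1 was higher and Cyp27a1 lower, and Cyp7a1, Cyp7b1 and Cyp8b1 were low in both tissues. Cyp51, the lanosterol demethylase of cholesterol synthesis, read 10.25 and 10.06 in knockout and 9.93 and 9.97 in wild-type fetal liver, against 6.73 and 6.59 in knockout and 6.29 and 6.40 in wild-type marrow. Its tissues were apart by 3.49 ± 0.10 in knockout arrays (11.2-fold, adjusted p = 1.73e-08, limma) and 3.60 ± 0.10 in wild-type arrays (12.2-fold, adjusted p = 1.55e-08, limma). Its 2 other probe sets gave 3.12 and 1.60 in knockout and 3.03 and 2.36 in wild-type arrays. Of the other cholesterol synthesis enzymes, 16 of 16 tested were higher in fetal liver in knockout arrays (36.6% of all tested genes) and in wild-type arrays (39.2%), with medians of 2.13 and 2.06 beside 0.11 and 0.14 over all tested genes. The differences ran from 0.77 for Ebp to 4.18 for Lss in knockout arrays and from 0.88 for Ebp to 3.70 for Lss in wild-type arrays. Lss makes lanosterol, the substrate of Cyp51. Hmgcs1, at the start of the pathway, differed by 3.63 and 3.51. Srebf2, which encodes the factor that drives these genes, differed by 0.52 and 0.36.

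**Figure D3:**
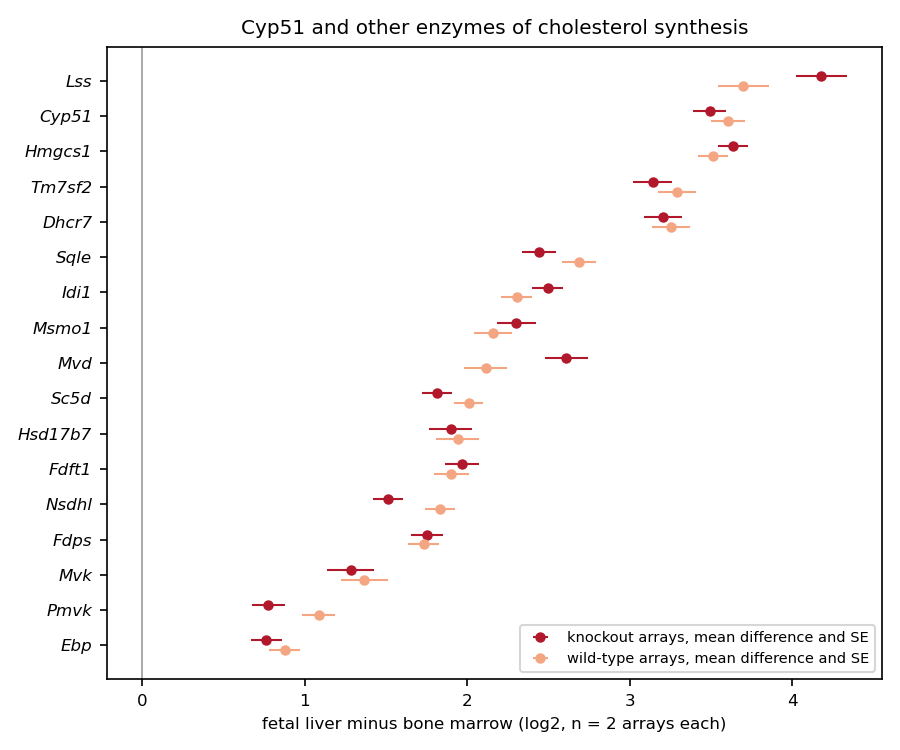
Fetal liver minus marrow difference (x axis, log2, with standard error of the fit) for Cyp51 and 16 other enzymes of cholesterol synthesis, for knockout and for wild-type arrays (2 arrays per group). Every point lies to the right of 0, from Ebp at 0.77 and 0.88 to Lss at 4.18 and 3.70.

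Cyp7a1 and Cyp8b1 set the amount and the kind of bile acids in adult liver, and Cyp7b1 acts on oxysterols. These 3 genes did not pass the filter, with levels of 3.07 to 4.74 over all arrays. Cyp39a1, an oxysterol hydroxylase of liver, read 6.44 and 6.97 in knockout and 5.81 and 6.22 in wild-type fetal liver, against 4.89 and 4.89 in knockout and 5.21 and 5.17 in wild-type marrow. Fetal liver was higher by 1.82 ± 0.18 in knockout arrays (3.52-fold, adjusted p = 3.21e-05, limma) and by 0.83 ± 0.18 in wild-type arrays (1.77-fold, adjusted p = 0.00359, limma), without overlap. Cyp27a1, the mitochondrial sterol hydroxylase of liver and macrophages, read 5.99 and 6.14 in knockout and 6.15 and 6.39 in wild-type fetal liver, against 6.97 and 7.10 in knockout and 6.75 and 6.93 in wild-type marrow. It was lower in fetal liver, at −0.97 ± 0.12 in knockout arrays (1.96-fold, adjusted p = 0.000114, limma) and −0.57 ± 0.12 in wild-type arrays (1.48-fold, adjusted p = 0.00266, limma). A second, dim probe set of Cyp27a1 gave −0.03 and 0.16. Cyp46a1, the cholesterol hydroxylase of brain, differed by 0.28 ± 0.12 in knockout arrays (adjusted p = 0.066, limma) and 0.31 ± 0.12 in wild-type arrays (adjusted p = 0.0467, limma). The wild-type call of Cyp46a1 was lost under 11 of 17 alternatives, with a highest adjusted p of 0.309 (limma) without wild-type fetal liver replicate 1.

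Of the bile acid partner genes, 7 of 9 tested were higher in fetal liver and 1 lower in each genotype, where 36.6% of all tested genes were higher and 27.1% lower in knockout arrays and 39.2% and 26.8% in wild-type arrays. A gene of this list could pass the filter through fetal liver arrays alone, so these counts support nothing further. Amacr, a racemase of the side chain pathway, differed by 3.10 in knockout and 3.09 in wild-type arrays, and Slc27a5, which activates bile acids for conjugation, by 2.68 and 3.17. The uptake transporters Slc10a1 and Slco1b2 did not pass the filter.

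The P450 genes of hormones and vitamins were mostly low. Of 5 genes of steroid hormone synthesis only Cyp21a1 was tested, and the other 4 read 2.97 to 4.82. Cyp21a1, the 21-hydroxylase of the adrenal cortex, read 6.56 and 6.31 in knockout and 6.65 and 6.36 in wild-type fetal liver, against 6.25 and 6.29 in knockout and 6.27 and 6.23 in wild-type marrow, with adjusted p of 0.266 in knockout and 0.104 in wild-type arrays (limma). Its fetal liver arrays were all above its marrow arrays, by small margins. Among steroid partners 4 of 8 tested were higher in fetal liver (background 36.6% in knockout and 39.2% in wild-type arrays) and 3 lower (background 27.1% and 26.8%) in each genotype. Hsd3b1, which converts pregnenolone to progesterone, differed by 4.28 in knockout and 4.65 in wild-type arrays, and Hsd11b1, which regenerates active glucocorticoid, by −2.75 and −2.50. Adrenal and gonad markers averaged 6.26 and 6.33 in knockout fetal liver, 6.36 and 6.55 in wild-type fetal liver, 5.28 and 5.39 in knockout marrow, and 5.36 and 5.28 in wild-type marrow over 7 genes, of which Mc2r and Inha did not pass the filter. Hsd3b1 is itself among these 7 genes, so the means hold its own difference. Over the 5 tested markers the median difference was 0.11 in knockout and 0.33 in wild-type arrays. Hsd3b1 and Fdx1 were called higher in knockout arrays (background 36.6%), and these and Amh in wild-type arrays (background 39.2%). The part of the other markers in the Hsd3b1 difference was not tested.

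The vitamin D enzymes Cyp2r1, Cyp27b1 and Cyp24a1 did not pass the filter, with levels of 2.68 to 5.11. Cyp26a1 and Cyp26b1 clear retinoic acid, and Cyp26a1 read 4.09 to 4.65. Cyp26b1 read 6.05 and 5.61 in knockout and 5.52 and 5.63 in wild-type fetal liver, against 5.34 and 5.39 in knockout and 5.56 and 5.68 in wild-type marrow. The tissues were apart in knockout arrays, by 0.47 ± 0.14 (adjusted p = 0.0174, limma), and overlapped in wild-type arrays, with −0.05 ± 0.14 (adjusted p = 0.78, limma). The direct test between these 2 differences did not call Cyp26b1 (0.51 ± 0.20, adjusted p = 0.279, limma). The knockout call was lost without either knockout marrow array or without knockout fetal liver replicate 1, with adjusted p of up to 0.0854 (limma). Of 9 retinoid handling genes tested, 6 were higher and 1 lower in knockout arrays and 5 higher and 1 lower in wild-type arrays, beside 63.8% and 65.9% of all tested genes called in either direction. Rbp4, the plasma retinol carrier made by hepatocytes, differed by 9.41 and 9.0, and Aldh1a1, which makes retinoic acid, by −6.34 and −6.14.

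The Cyp4 enzymes hydroxylate fatty acids and eicosanoids, and 6 of 13 members were tested, with 2 higher and 2 lower in fetal liver in each genotype, a share called near the 63.8% of all tested genes in knockout and 65.9% in wild-type arrays. Cyp4f18, which inactivates leukotriene B4 in mouse neutrophils, read 5.26 and 5.19 in knockout and 4.99 and 6.0 in wild-type fetal liver, against 9.45 and 8.95 in knockout and 9.37 and 8.89 in wild-type marrow. All marrow arrays were far above all fetal liver arrays, and the difference was −3.97 ± 0.31 in knockout arrays (15.7-fold, adjusted p = 6.37e-06, limma) and −3.64 ± 0.31 in wild-type arrays (12.5-fold, adjusted p = 1.03e-05, limma). Its second probe set stayed between 3.65 and 4.28 and gave −0.02 and 0.18, so the call rests on 1 probe set. The mean of both gave −2.0 in knockout and −1.73 in wild-type arrays. The 11 neutrophil markers on the array were all called lower in fetal liver in each genotype (background 27.1% in knockout and 26.8% in wild-type arrays). These markers averaged 8.60 and 8.83 in knockout fetal liver, 8.41 and 8.74 in wild-type fetal liver, 12.59 and 12.53 in knockout marrow, and 12.52 and 12.55 in wild-type marrow. Their part in the Cyp4f18 difference was not tested.

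Cyp4b1, which activates some plant toxins in rodents, read 7.57 and 8.05 in knockout and 8.22 and 8.23 in wild-type fetal liver, against 9.62 and 9.42 in knockout and 9.54 and 9.69 in wild-type marrow. It was lower in fetal liver, at −1.71 ± 0.15 in knockout arrays (3.28-fold, adjusted p = 1.59e-05, limma) and −1.39 ± 0.15 in wild-type arrays (2.62-fold, adjusted p = 5.59e-05, limma), with no overlap of tissues. Cyp4v3, a fatty acid hydroxylase, read 7.58 and 7.71 in knockout and 7.80 and 7.89 in wild-type fetal liver, against 6.25 and 6.37 in knockout and 6.33 and 6.21 in wild-type marrow. Fetal liver was higher by 1.33 ± 0.10 in knockout arrays (2.52-fold, adjusted p = 4.55e-06, limma) and by 1.58 ± 0.10 in wild-type arrays (2.98-fold, adjusted p = 1.51e-06, limma). Cyp4f15, a neighbour of Cyp4f16 on chromosome 17, read 6.37 and 5.91 in knockout and 6.20 and 5.76 in wild-type fetal liver, against 4.78 and 4.80 in knockout and 4.78 and 4.97 in wild-type marrow. Its tissues did not overlap, and it was higher in fetal liver by 1.35 ± 0.18 in knockout arrays (2.55-fold, adjusted p = 0.000199, limma) and by 1.10 ± 0.18 in wild-type arrays (2.15-fold, adjusted p = 0.000645, limma). Cyp4f13 and Cyp4f16 were called in neither tissue comparison, with differences of 0.11 and −0.06 in knockout and 0.21 and 0.33 in wild-type arrays. Cyp4f16 was called in wild-type arrays under 5 of 18 alternatives, at 0.55 (adjusted p = 0.000271, limma) for the mean of its probe sets. Of the other eicosanoid genes, 2 of 13 tested were higher and 7 lower in knockout fetal liver, and 3 higher and 7 lower in wild-type fetal liver, where 36.6% of all tested genes were higher and 27.1% lower in knockout arrays and 39.2% and 26.8% in wild-type arrays. Alox5ap, which presents arachidonic acid for leukotriene synthesis, differed by −3.77 in knockout and −4.05 in wild-type arrays.

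Cyp20a1, an orphan P450 with no settled substrate, read 9.58 and 9.90 in knockout and 10.02 and 9.99 in wild-type fetal liver, against 8.22 and 8.31 in knockout and 8.47 and 8.32 in wild-type marrow. Fetal liver was above marrow on every array, by 1.47 ± 0.12 in knockout arrays (2.78-fold, adjusted p = 8.59e-06, limma) and by 1.61 ± 0.12 in wild-type arrays (3.06-fold, adjusted p = 4.48e-06, limma). Its dimmer probe sets gave 0.30 and 0.72 in knockout and 0.84 and 1.06 in wild-type arrays.

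Partners and regulators of P450 genes were counted in the same way. Of 12 electron donor and heme genes tested, 6 were higher and 2 lower in knockout fetal liver, and 7 higher and 1 lower in wild-type fetal liver, so 8 were called in each genotype, a share near the 63.8% and 65.9% of all tested genes. Pgrmc1, a heme protein that binds P450 enzymes, differed by 1.49 in knockout and 1.71 in wild-type arrays, and Cyb5r3, a cytochrome b5 reductase, by 1.83 and 1.58, or by 0.22 and 0.26 on a dimmer probe set. Of 26 receptors and transcription factors known to regulate P450 genes, 17 were higher (background 36.6% in knockout and 39.2% in wild-type arrays) and 3 lower (background 27.1% and 26.8%) in each genotype. Some of the 17, such as Foxa3 and Nr1i2, passed the filter through fetal liver arrays alone, so this count supports nothing further. Foxa3, a pioneer factor of hepatocytes, differed by 5.34 in knockout and 4.98 in wild-type arrays. Hnf4a, which encodes a form of the receptor HNF4, differed by 3.35 and 3.14, but by 0.0077 and −0.045 on its dimmer probe set. Binding of its protein to the windows printed above was not tested. Nr1i2, which encodes the drug receptor PXR that induces Cyp3a11, differed by 2.53 and 2.55. Pparg, a lipid receptor, was lower in fetal liver, by −1.41 and −1.86. Nr1i3 (the receptor CAR) and Ahrr did not pass the filter. The hepatocyte markers given above were higher in fetal liver for 11 of 11 genes in each genotype (background 36.6% in knockout and 39.2% in wild-type arrays). Their mean was 4.51 to 4.76 on the marrow arrays, below the filter level of 5. Markers could thus pass through fetal liver arrays alone, and this count supports nothing further. Hnf4a is counted both among the markers and among the regulators. The part of these markers in the P450 differences was not tested.

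Knockout and wild-type mice were compared within each tissue to ask whether loss of Col18a1 goes with another level of any P450 gene. In fetal liver the compared pools also differ in sex-linked expression, as given above, and genotype and sex cannot be told apart there. In marrow limma called 0 of 28 (background 0.411%), and the lowest adjusted p was 0.561. In fetal liver it called 0 of 28 (background 0.32%), with a lowest adjusted p of 0.0926. The test of whether the genotype difference depends on tissue called 0 of 28 (background 0.0914%), with a lowest adjusted p of 0.175. At an unadjusted p under 0.05 the counts were 2 of 28 in marrow (background 6.74%), 7 in fetal liver (background 22%) and 6 for the dependence on tissue (background 15.7%), so the P450 share lay near that of all genes in fetal liver. The medians were 0.0032 over P450 genes and 0.014 over all genes in marrow, and 0.0085 and −0.027 in fetal liver.

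The alternatives that left no array out gave a fetal liver count of 0 or 1, the 1 being Cyp3a11 with a mean-dependent and robust variance. Over all genes the fetal liver calls numbered 42, with 4 to 1010 under the alternatives. Cyp4b1 differed by −0.65 without knockout fetal liver replicate 2, which leaves 1 array in that group. The values with the smallest p are given as measured. In fetal liver Cyp3a11 was 0.73 lower on the log2 scale in knockout than in wild-type arrays (−0.73 ± 0.16, adjusted p = 0.0926, or 0.0454 with the robust variance, limma), and no array of 1 genotype lay within the other. In marrow its difference was 0.09 ± 0.16, and the difference between the tissues was −0.82 ± 0.23 (adjusted p = 0.192, limma). Cyp39a1 had 0.69 ± 0.18 in fetal liver (adjusted p = 0.109, limma) and −0.30 ± 0.18 in marrow (adjusted p = 0.866, limma), with 0.99 ± 0.26 between tissues (adjusted p = 0.175, limma). Cyp3a16 had −0.42 ± 0.15 in fetal liver (adjusted p = 0.164, limma) and 0.25 ± 0.15 in marrow (adjusted p = 0.864, limma). These genes encode enzymes of drug, steroid and oxysterol oxidation, and their genotype arrays did not overlap in fetal liver.

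The other fetal liver values with an unadjusted p under 0.05 were 0.33 ± 0.12 for Cyp1a1 (adjusted p = 0.162, limma), 0.48 ± 0.18 for Cyp2d26 (adjusted p = 0.178, limma), −0.42 ± 0.15 for Cyp4b1 (adjusted p = 0.174, or 0.0307 without knockout fetal liver replicate 2, limma) and −0.58 ± 0.24 for Cyp2a12 (adjusted p = 0.201, limma). Hepatocyte markers had 0 of 11 called between the fetal liver genotypes (background 0.32%), with a median difference of 0.12. In marrow Cyp51 had 0.31 ± 0.10 (adjusted p = 0.564, limma) on the probe set used but −0.02 and 0.54 on its others, and Cyp2d10 had −0.42 ± 0.14 (adjusted p = 0.561, limma) at levels below the filter on all marrow arrays. Over 28 genes in marrow, 5 had both knockout arrays above both wild-type arrays (background 23.8%) and 7 had them below (background 19.3%). In fetal liver these counts were 5 (background 19.9%) and 8 (background 30.2%). With 2 arrays per group a miss of the threshold does not show equal levels, and the median SD of a tested P450 gene between replicates was 0.17 in knockout fetal liver, 0.14 in wild-type fetal liver, 0.09 in knockout marrow and 0.13 in wild-type marrow.

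**Figure D4:**
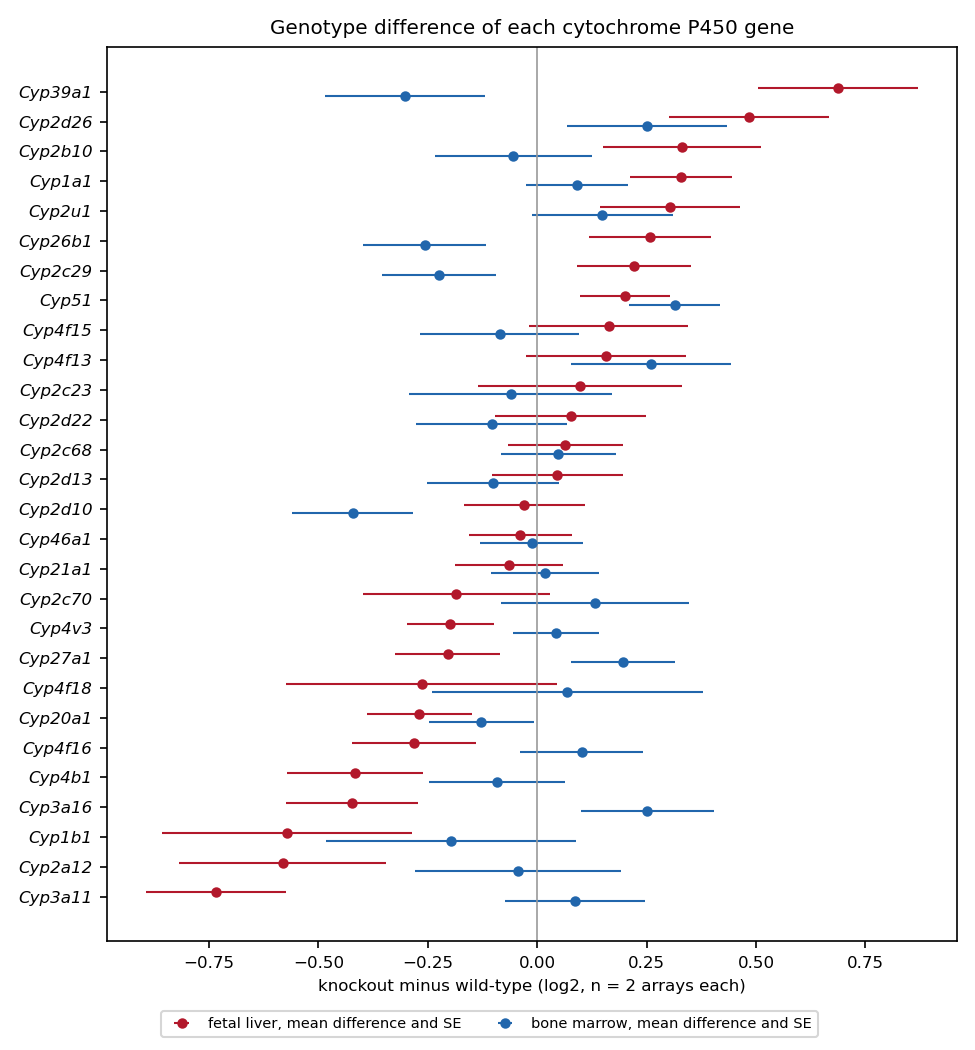
Knockout minus wild-type difference (x axis, log2, with standard error of the fit, 2 arrays per group) for the 28 tested P450 genes in fetal liver and in marrow, ordered by the fetal liver difference. Fetal liver values run from −0.73 for Cyp3a11 to 0.69 for Cyp39a1, none of which was called. The fetal liver genotypes also differ in sex-linked expression.

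Among the pathway lists none of the cholesterol synthesis, electron donor, receptor, steroid, bile acid or retinoid genes was called between genotypes in either tissue. Of 13 eicosanoid genes tested, 1 rose and 1 fell in knockout marrow and 0 were called in fetal liver. Over all tested genes the shares called were 0.411% in marrow and 0.32% in fetal liver. Ptgs2, the inducible prostaglandin synthase, read 6.36 and 5.68 in knockout marrow against 4.41 and 4.60 in wild-type marrow (1.52 ± 0.24, adjusted p = 0.0488, limma). Alox12, the platelet lipoxygenase, read 7.58 and 7.60 in knockout marrow against 9.18 and 8.84 in wild-type marrow (−1.41 ± 0.12, adjusted p = 0.00619, limma). Both genes had their marrow genotypes apart, but the Ptgs2 call was lost under 10 of 16 alternatives, each of 6 arrays left out among them, with adjusted p of up to 0.379 (limma). The Alox12 call was lost without either knockout marrow array and with the marrow arrays alone, with adjusted p of up to 0.114 (limma). Megakaryocyte markers averaged 9.09 and 9.09 in knockout marrow against 10.39 and 10.07 in wild-type marrow over 9 genes, and their part in the Alox12 difference was not tested.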

How the data were processed

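Biotin-labelled cRNA made from total RNA was put on Affymetrix arrays for mouse. For each of 45101 probe sets the deposited file gives 1 intensity per array, linear in scale, computed by the authors with RMA per the submitters' processing notes. The RMA version and a genome build are not given in the sources used here. Log2 was then applied here to the authors' deposited intensities. RMA makes array distributions alike and shrinks the differences of dim ones. Detection calls were not used. The number of arrays limits the precision.

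Groups came from the titles and source names (4 groups of 2 arrays, 2 pooled littermates each). Probe sets were named through the platform annotation. Of those for P450 genes, 98 name 1 gene and 4 name several, and the 4 were left out of the tests. All 73 genes were found by Entrez identifier in RefSeq's gene list (GRCm38.p6), with 0 changed symbols, which also gave chromosomes and gene order. The brightest probe set was used for the 19 genes with more than 1.

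One limma model (version 3.58.1, lmFit and eBayes, in R 4.3.3) with a mean for each group was fitted to all 8 arrays. It had 4 residual and 4.48 prior degrees of freedom. P-values are two-sided and Benjamini-Hochberg adjusted across the 13136 genes at 5 or more on at least 2 arrays, with a threshold of 0.05. The fit was tested on simulated data. The 5 comparisons set fetal liver against marrow in each genotype and knockout against wild-type mice in each tissue, and asked whether the genotype difference depends on tissue. Genes named are the P450 genes, the targeted gene and up to 3 genes of each other list by moderated t. Ebp, Lss, Srebf2, Hnf4a, Nr1i2, Pparg, Slc10a1, Slco1b2, Nr1i3, Ahrr, Mc2r, Inha and the sex-linked genes were named after their values were seen. The P450 genes, the lists, the markers and the motif strings were chosen with earlier results of these data known. Alternatives covered the filter, probe set choice, normalization, variance model, array weights, the arrays fitted, the replicate number as a block and each array left out.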

Additional observations from a re-analysis of the deposited data

How the results depend on the processing

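The counts of called P450 genes were 0 in marrow and 0 for the interaction under every alternative run. For knockout against wild-type fetal liver the count of 0 became 1 with a mean-dependent and robust variance, and leaving out 1 array at a time gave 0 to 3. For fetal liver against marrow, leaving out 1 array gave 20 to 23 in knockout and 18 to 21 in wild-type arrays, and the other alternatives gave 18 to 26 and 17 to 27, the highest being with no filter on low values. Over all genes the calls numbered 42 between fetal liver genotypes, with 4 to 1010 under the alternatives, and 54 between marrow genotypes, with 2 to 109. Replicate numbers showed no sign of pairing (correlations of deviations between compared groups −0.062 to −0.00078), which does not exclude it. The replicate block gave 0, 0, 0, 20 and 21 P450 calls, the same counts as without the block. With the block Cyp46a1 lost and Cyp4f16 gained its wild-type call, and the Ptgs2 call and that of Col18a1 in fetal liver were lost. The Col18a1 call in fetal liver was lost under 8 of 18 alternatives, with adjusted p of up to 0.157 (limma). Of 1762 values of named genes under alternatives, 1709 kept direction and side of the threshold, 43 lost the call, 9 gained one and 1 turned: Hnf4a in wild-type arrays was −0.045 with plain probe sets only, where another probe set reads it. The Srebf2 call in wild-type arrays was lost without wild-type marrow replicate 2 (adjusted p = 0.0503, limma). Genes with no marrow array at the filter level have tissue differences limited by the floor of the signal.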

Other observations

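Probe sets that name several P450 genes were left out of the tests and are given as group means (log2, 2 arrays each). The Cyp2a5 and Cyp2a4 probe set, for hydroxylases of coumarin and testosterone, had 4.50 in knockout fetal liver, 4.33 in wild-type fetal liver, 3.84 in knockout marrow and 3.90 in wild-type marrow. The probe set of Cyp4f37 and Cyp4f16 had 4.54 in knockout fetal liver, 5.13 in wild-type fetal liver, 4.67 in knockout marrow and 4.55 in wild-type marrow. Those of Cyp3a41a with Cyp3a41b and of Cyp4a10 with Cyp4a31 stayed between 2.52 and 3.32.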
